A study of Homo sapiens with 12 samples.

Results

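The zinc finger cluster at the end of the long arm of chromosome 19, in band 19q13.43, was examined in K562 leukaemia cells and a drug-resistant subline. The cluster was taken as 47 named zinc finger genes between ZNF471 and ZNF446 (chromosome 19, 56507855 to 58489533 in GRCh38.p14, a stretch of 1.98 Mb), of 18417 genes measured. They were selected on measured values, because a run of them read lower in the resistant line than in K562. On untreated arrays the contrast between the lines is therefore described here and not tested. Of the 47 genes, 44 had an array row of their own. ZNF547 and ZNF497 were read only by rows that also name other genes, and ZNF132 had no row.

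Expression was measured on Affymetrix arrays in 4 groups of 3 arrays, 12 in all. K562 (KS) is an established human line derived from chronic myeloid leukaemia. KA is K562/ADR, its multidrug-resistant subline, which was raised with adriamycin (doxorubicin, an anthracycline that damages DNA) and kept in medium with 50 nM of it. Both lines were grown in medium with fetal calf serum and were measured untreated and after decitabine at 5 nM for 72 hours. Decitabine, a nucleoside analogue that enters replicating DNA and captures DNA methyltransferases, lowers DNA methylation as cells divide. The stated aim concerned how decitabine reverses drug resistance carried by the P-glycoprotein pump. Resistance was studied in 1 subline, and line and adriamycin cannot be told apart as the source of any KA against KS difference. It is not stated whether untreated cells got a vehicle, whether adriamycin was present during treatment, or whether the replicates of a group were grown apart. The p-values therefore reflect the spread between these arrays alone, which may be technical.

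Most genes of the cluster encode C2H2 zinc finger proteins with a KRAB domain. The fingers bind DNA, and the KRAB domain binds the corepressor TRIM28, which brings in the histone methyltransferase SETDB1, HP1 proteins and DNA methylation. Many such proteins silence transposable elements, and the genes themselves lie in tandem arrays that arose by duplication, with many on chromosome 19. Their own bodies carry H3K9me3, a mark that ZNF274, a member of this cluster, helps to place at the 3' ends of zinc finger genes. Some of the promoters, those of ZNF154 and ZNF671 among them, are known to gain DNA methylation in tumours.

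Promoters of the cluster share a short word that the choice of the genes did not use. RefSeq windows on GRCh38.p14, from 250 bases before to 50 bases after the start listed for each gene, were found for 42 of the 47 genes (not for ZNF471, ZFP28, ZNF211, ZNF552 and ZNF417). In 35 of them that start is the outer edge of the RefSeq gene, and in the other 7 it lies inside the gene, by 17.5 kb in ZSCAN4, 7.09 kb in ZNF584, 6.76 kb in ZNF749, 4.32 kb in ZNF329, 1.53 kb in ZNF550 and less in ZNF606 and ZSCAN18. The word CCGGAAGT, searched on both strands and therefore also as ACTTCCGG, is the consensus of many ETS factors such as GABPA. It was present in 22 of 42 windows (52.4%), against 4.44% of all 27305 windows and 6.19% of the 15843 windows of protein-coding genes. In 20 of the 22 genes it read ACTTCCGG along the gene's strand, and in 17 it began within 40 bases before to 10 bases after the start. The longer word GGGACTTCCGG contains the first and was searched after the first had been seen. Its added letters were those found most often before ACTTCCGG in these same windows, so its share here is raised by that choice. It was in 13 windows (31.0%) against 0.256% of all windows. The stretches below, each of 30 bases with ACTTCCGG in capitals, are shown because their genes carry the differences between lines or between treatments that follow.
ZNF264, chr19:57191462-57191491, plus strand: gtgggggcgggACTTCCGGgttgctcgctg
ZNF805, chr19:57240583-57240612, plus strand: cttggggcgggACTTCCGGcatttggatgg
ZNF419, chr19:57487721-57487750, plus strand: caatgggcgggACTTCCGGcgtctcgtttg
ZNF773, chr19:57499857-57499886, plus strand: caatgggcgggACTTCCGGcgtctcccctc
ZNF550, chr19:57559842-57559871, minus strand: acaggggcgggACTTCCGGcctcgctggcg
ZNF416, chr19:57578890-57578919, minus strand: ggtaaggcgggACTTCCGGcaccgctccga
ZIK1, chr19:57584117-57584146, plus strand: gtcggggagggACTTCCGGtatcacttcag
ZNF530, chr19:57599877-57599906, plus strand: gtcggagcggaACTTCCGGcgtcctccctg
ZNF134, chr19:57614213-57614242, plus strand: ctctgggcgggACTTCCGGtatcttcctcg
ZNF551, chr19:57681969-57681998, plus strand: gacgggccggaACTTCCGGcgtcctcctcg
ZNF671, chr19:57727623-57727652, minus strand: gcgtgggcgggACTTCCGGctcctccttgt
ZNF776, chr19:57746785-57746814, plus strand: ataaaggtgggACTTCCGGcgtcctctact
ZNF587, chr19:57849833-57849862, plus strand: gtaaggccgagACTTCCGGggtctctagta

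In other zinc finger genes the 8-letter word was in 0 of 25 windows in 19p12, 6 of 26 (23.1%) in 19q13.12, 14 of 118 (11.9%) elsewhere on chromosome 19 and 36 of 222 (16.2%) on other chromosomes. These shares are descriptions, since duplicated genes share sequence and are not independent. In all, 8 words were searched. GGGGCGGGG (SP and KLF factors) was in 3 of the cluster's windows (7.14%, all windows 16.0%), CACGTG (E box) in 4 (9.52%, all windows 7.43%) and TGACGTCA (CRE) in 2 (4.76%, all windows 1.98%). The words of NRF1, ZNF143 and YY1 were in none of the 42, and in 1.36%, 0.256% and 0.916% of all windows.

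Most of these promoters are rich in CpG, the dinucleotide that DNA methyltransferases act on. The ratio of observed to expected CpG had a median of 0.82 over the 42 windows and was at least 0.6 in 38 of them (90.5%), against 49.0% of all windows and 65.8% of those of protein-coding genes. ZNF329 had the highest ratio (1.21) and ZSCAN4 the lowest (0.16). The 150 bases before the listed starts of ZNF543 and ZSCAN4 (the latter within the gene, as said) are shown, with each CpG in capitals. They are the CpG-rich promoter of a gene lower in KA and the CpG-poor promoter of a gene called raised by decitabine in both lines. The pair stands for no division of the cluster by CpG. The ratio was at least 0.6 in 7 of 8 windows of genes raised by decitabine in KS (87.5%). Among the other measured genes with a window it was so in 28 of 31 (90.3%). The readings of ZSCAN4 were not shown to exceed background, and its call in KA did not hold with every array left out, as given below.
ZNF543, chr19:57320322-57320471, plus strand, 12 CpG: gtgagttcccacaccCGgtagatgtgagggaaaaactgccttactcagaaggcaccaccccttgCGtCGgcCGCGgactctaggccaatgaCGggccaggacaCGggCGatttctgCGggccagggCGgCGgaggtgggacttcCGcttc
ZSCAN4, chr19:57668785-57668934, plus strand, 1 CpG: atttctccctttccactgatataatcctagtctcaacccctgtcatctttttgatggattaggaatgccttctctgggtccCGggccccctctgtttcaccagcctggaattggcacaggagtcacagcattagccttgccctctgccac

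All values are log2 intensities as the authors deposited them, and differences are on that log2 scale with the standard error (SE). The median of an array was 4.96 to 5.01, and replicates correlated with each other at 0.990 to 0.995 over all rows. ABCB1, the gene of P-glycoprotein, read 3.39 ± 0.21 (SD, n = 3) in untreated KS and 11.22 ± 0.04 in untreated KA, which fits the labels of the lines. Of 10 erythroid and K562 markers 9 had a row, and all 9 lay above the background level used below in every group, while 4 of 5 lymphoid and 6 of 7 fibroblast, endothelial and epithelial markers also did. The mean of the lymphoid list lay between 3.72 and 4.07 on the arrays of all groups, that of the fibroblast, endothelial and epithelial list between 5.30 and 5.47 and that of the erythroid list between 8.98 and 9.18. Most markers of other tissues thus also passed the background level, so a gene above it is not thereby shown to be expressed. KS untreated replicate 3 stood apart: over genes that decitabine raised in KS it lay a median of 25.1% of the way towards the treated arrays (329 genes), and over lowered genes 33.8% (148 genes). KS decitabine replicate 1 lay 14.7% (271 genes) and 19.7% (147 genes) of the way back, so results that rest on KS are also given without these arrays where a call changes.

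The background level was set at 3.39, the largest of the arrays' lower quartiles, and a group mean that did not pass it was not shown to exceed background. By this level 38 of the 44 genes were above background in every group. ZNF471, ZFP28, ZNF470, ZSCAN4 and ZNF418 were above it in no group, and ZNF256 was above it in treated KS alone (3.63 ± 0.24). Arrays of a group differed little in the cluster, with a median within-group SD of 0.11 over genes and groups and a highest SD of 0.48 (ZNF417 in untreated KA). In a bulk culture, fewer cells that express a gene and less RNA per cell cannot be told apart.

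In untreated cells most of the lower readings of KA within the cluster lay in 1 block of neighbouring genes. From ZNF805 to ZNF417 (57240632 to 57916592, 676 kb, 26 genes measured) the median difference of KA from KS was -0.55, while it was 0.06 over the 6 genes before the block and 0.06 over the 12 genes after it. The block's ends were set after the values had been seen, and the contrast is the one behind the choice of the cluster, so these figures describe and test nothing. All 3 KA arrays lay below all 3 KS arrays for 22 of the 44 genes (50.0%) and above them for 2, ZNF773 and ZNF544, where 20.0% and 18.4% of all 18417 genes did so. Of the 22 genes 21 lay in the block, and the other was ZNF329. The 5 remaining genes of the block were ZNF419, ZIK1, ZSCAN4 and ZNF154, whose arrays overlapped, and ZNF773. A difference of at least 1 was reached downwards by 3 genes (0.988% of all genes did so) and upwards by 0 (1.4% of all genes did so).

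ZNF550 read 5.78, 5.77 and 5.53 in untreated KS and 4.73, 4.56 and 4.08 in untreated KA, a difference of -1.24 ± 0.14 (SE). ZNF551 read 6.80, 6.64 and 6.47 in untreated KS and 5.38, 5.59 and 5.73 in untreated KA, a difference of -1.07 ± 0.10. ZNF543 read 6.27, 6.10 and 6.27 in untreated KS and 4.97, 5.14 and 5.34 in untreated KA, a difference of -1.06 ± 0.12. In each of the 3 genes every KA array was well below every KS array. Without KA untreated replicate 1 only 1 of the 3 still reached a difference of 1. Next in size were ZNF772 (-0.94 ± 0.09), ZNF416 (-0.91 ± 0.11), ZNF805 (-0.83 ± 0.11) and ZNF304 (-0.78 ± 0.09), the last of which encodes a protein known to recruit corepressors to the INK4-ARF locus in colorectal cancer cells. The smallest differences among the 22 genes were those of ZNF586 (-0.25 ± 0.13) and ZNF329 (-0.18 ± 0.09).

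**Figure D1:**
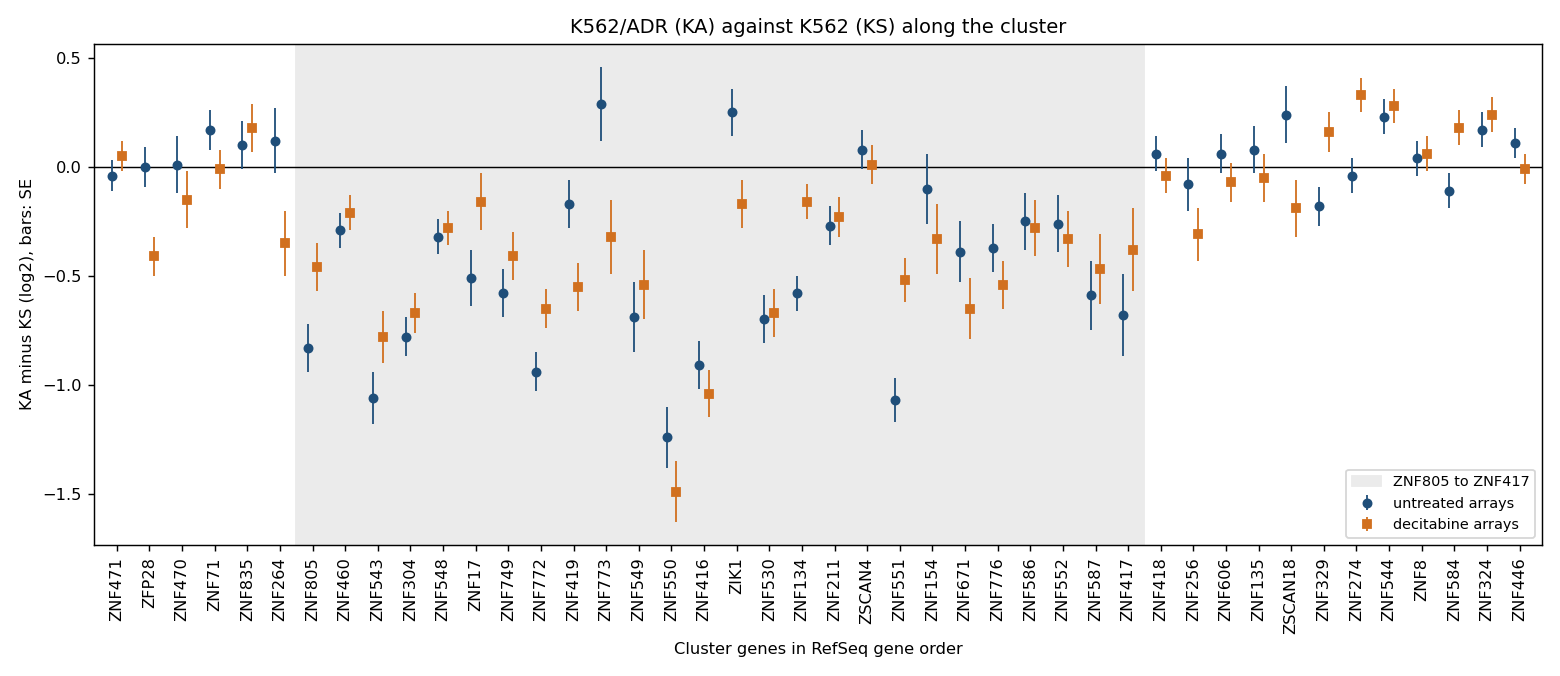
Difference of KA from KS (log2, vertical axis) for the 44 measured genes in RefSeq gene order (horizontal axis), on untreated arrays (circles) and decitabine arrays (squares), with SE as bars and the block from ZNF805 to ZNF417 shaded. In the shaded block 23 of 26 untreated and 25 of 26 treated values lie below 0, with ZNF550 lowest at -1.24 untreated and -1.49 treated, while the genes on either side scatter around 0.

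The decitabine arrays, which are other arrays of the same lines, were compared by the same contrast. In it the untreated arrays enter only the common estimate of the spread. The cluster was chosen, and the block cut, on lower readings of KA against KS. The calls below therefore repeat that difference between the same lines and give no independent support for it. KA was again below KS. By limma, at an adjusted p under 0.05 over all 18417 genes, 16 of 44 genes (36.4%) were lower in treated KA, against 11.9% of all genes, and 3 were higher (6.82%), against 15.1% of all genes. The median difference was -0.28 over the cluster and 0.00 over all genes. Of the 16 lower genes 15 were among the 26 of the block, whose median was -0.43, and the other was ZFP28, whose readings were not shown to exceed background. None of the 12 genes after the block was called lower. Of the 22 genes that were lower without overlap in untreated cells 14 were called lower again. The same share among all genes lower without overlap is not given, so this count is not read as particular to the cluster. The calls of 13 of the 19 genes held when each of the 12 arrays was left out in turn.

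The largest differences were those of ZNF550 and ZNF416, neighbours that both read GGGACTTCCGG near their start. ZNF550 read 6.05, 6.19 and 6.11 in treated KS and 4.61, 4.71 and 4.54 in treated KA, a difference of -1.49 ± 0.14 (adjusted p = 3.15e-06), which is 2.82-fold lower. ZNF416 read 5.60, 5.64 and 5.44 in treated KS and 4.53, 4.48 and 4.54 in treated KA, a difference of -1.04 ± 0.11 (adjusted p = 9.41e-06). The gap between the lines was in both genes several times the spread within a group. In untreated cells ZNF416 had read 5.43, 5.17 and 5.21 in KS and 4.35, 4.59 and 4.15 in KA.

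ZNF543 read 5.91, 6.05 and 6.12 in treated KS and 5.03, 5.27 and 5.44 in treated KA, a difference of -0.78 ± 0.12 (adjusted p = 0.000223). ZNF304 read 5.50, 5.62 and 5.70 in treated KS and 4.94, 4.97 and 4.89 in treated KA, a difference of -0.67 ± 0.09 (adjusted p = 0.000115). ZNF530 read 5.65, 5.51 and 5.56 in treated KS and 4.84, 4.75 and 5.10 in treated KA, a difference of -0.67 ± 0.11 (adjusted p = 0.000458). Each of these 3 genes was also without overlap in untreated cells. There ZNF304 read 5.43, 5.60 and 5.37 in KS and 4.52, 4.71 and 4.84 in KA. ZNF530 read 5.83, 5.61 and 5.40 in untreated KS and 4.95, 4.89 and 4.90 in untreated KA. The difference of ZNF530 was thus nearly the same size on both sets of arrays (-0.70 and -0.67).

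ZNF772, which lies between ZNF749 and ZNF419, read 4.67, 4.89 and 4.83 in treated KS and 4.04, 4.18 and 4.21 in treated KA, a difference of -0.65 ± 0.09 (adjusted p = 8.55e-05). ZNF671, whose promoter methylation has been studied in several cancers, read 4.86, 4.85 and 4.55 in treated KS and 4.32, 4.06 and 3.91 in treated KA, a difference of -0.65 ± 0.14 (adjusted p = 0.00279). ZNF776 read 6.87, 6.53 and 6.85 in treated KS and 6.31, 6.13 and 6.18 in treated KA, a difference of -0.54 ± 0.11 (adjusted p = 0.00173). None of the 3 genes overlapped between the treated lines. In untreated cells ZNF671 read 4.44, 4.58 and 4.67 in KS and 4.17, 4.43 and 3.93 in KA, where the highest KA array came within a short distance of the lowest KS array.

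ZNF419, a gene known as the source of a minor histocompatibility antigen, was called lower in treated KA although its untreated arrays overlapped. It read 5.91, 5.93 and 5.93 in treated KS and 5.31, 5.43 and 5.38 in treated KA, a difference of -0.55 ± 0.11 (adjusted p = 0.00196). Untreated KS gave 5.11, 5.49 and 5.65 and untreated KA 5.33, 5.23 and 5.2. The first KS array was thus lower than every KA array before treatment, and no treated array overlapped.

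ZNF549 read 4.62, 4.72 and 4.57 in treated KS and 4.16, 3.90 and 4.23 in treated KA, a difference of -0.54 ± 0.16 (adjusted p = 0.02). Untreated it had read 4.63, 4.29 and 4.81 in KS and 4.01, 3.53 and 4.10 in KA, again without overlap. The remaining lower calls were ZNF551 (-0.52 ± 0.10), ZNF587 (-0.47 ± 0.16), ZNF805 (-0.46 ± 0.11), ZNF749 (-0.41 ± 0.11), ZFP28 (-0.41 ± 0.09) and ZNF548 (-0.28 ± 0.08), with adjusted p from 0.00207 (ZNF551) to 0.0493 (ZNF587). ZNF587 and ZNF417 are close relatives, known to silence HERV-K elements, and a probe set can read either copy, so their values are uncertain as to the gene. ZNF417 itself differed by -0.38 ± 0.19 and was not called.

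After the block, 3 genes were called higher in treated KA. ZNF274, which encodes the factor that helps to place H3K9me3 at zinc finger genes, read 7.16, 7.08 and 7.0 in treated KS and 7.34, 7.34 and 7.55 in treated KA, a difference of 0.33 ± 0.08 (adjusted p = 0.00738). Its untreated arrays overlapped (7.37, 7.31 and 7.21 in KS, 7.24, 7.2 and 7.33 in KA). ZNF544 differed by 0.28 ± 0.08 (adjusted p = 0.0233) and ZNF324 by 0.24 ± 0.08 (adjusted p = 0.0452).

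Some of these calls rested on single arrays. ZNF749 missed the threshold without KA decitabine replicate 3 (adjusted p = 0.0516). ZNF548 missed it without KS decitabine replicate 2 (0.0519) or KA decitabine replicate 1 (0.0664), and ZNF549 without KS decitabine replicate 2 (0.0671) or KA decitabine replicate 2 (0.0872). ZNF544 missed it without KS decitabine replicate 2 (0.104) or any of the 3 treated KA arrays (0.056 to 0.0656), and then 1 higher call was left. ZNF587 and ZNF324 each missed it in 8 of 12 cases, with the highest adjusted p at 0.198 without KS decitabine replicate 3 and at 0.122 without KS decitabine replicate 1. Without both KS arrays that stood apart 18 genes were lower and 2 higher.

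The 8 genes that did not overlap in untreated cells and were not called in treated ones were ZNF134, ZNF17, ZNF211, ZNF329, ZNF417, ZNF460, ZNF552 and ZNF586. Their treated differences ran from -0.38 ± 0.19 (ZNF417) to 0.16 ± 0.09 (ZNF329). ZNF134 went from -0.58 ± 0.08 untreated to -0.16 ± 0.08 treated, and ZNF17 from -0.51 ± 0.13 to -0.16 ± 0.13. The promoter word gave no sharp division: CCGGAAGT or its reverse was in 9 of the 15 windows of genes lower in treated KA and in 11 of the 24 windows of the other measured genes.

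**Figure D2:**
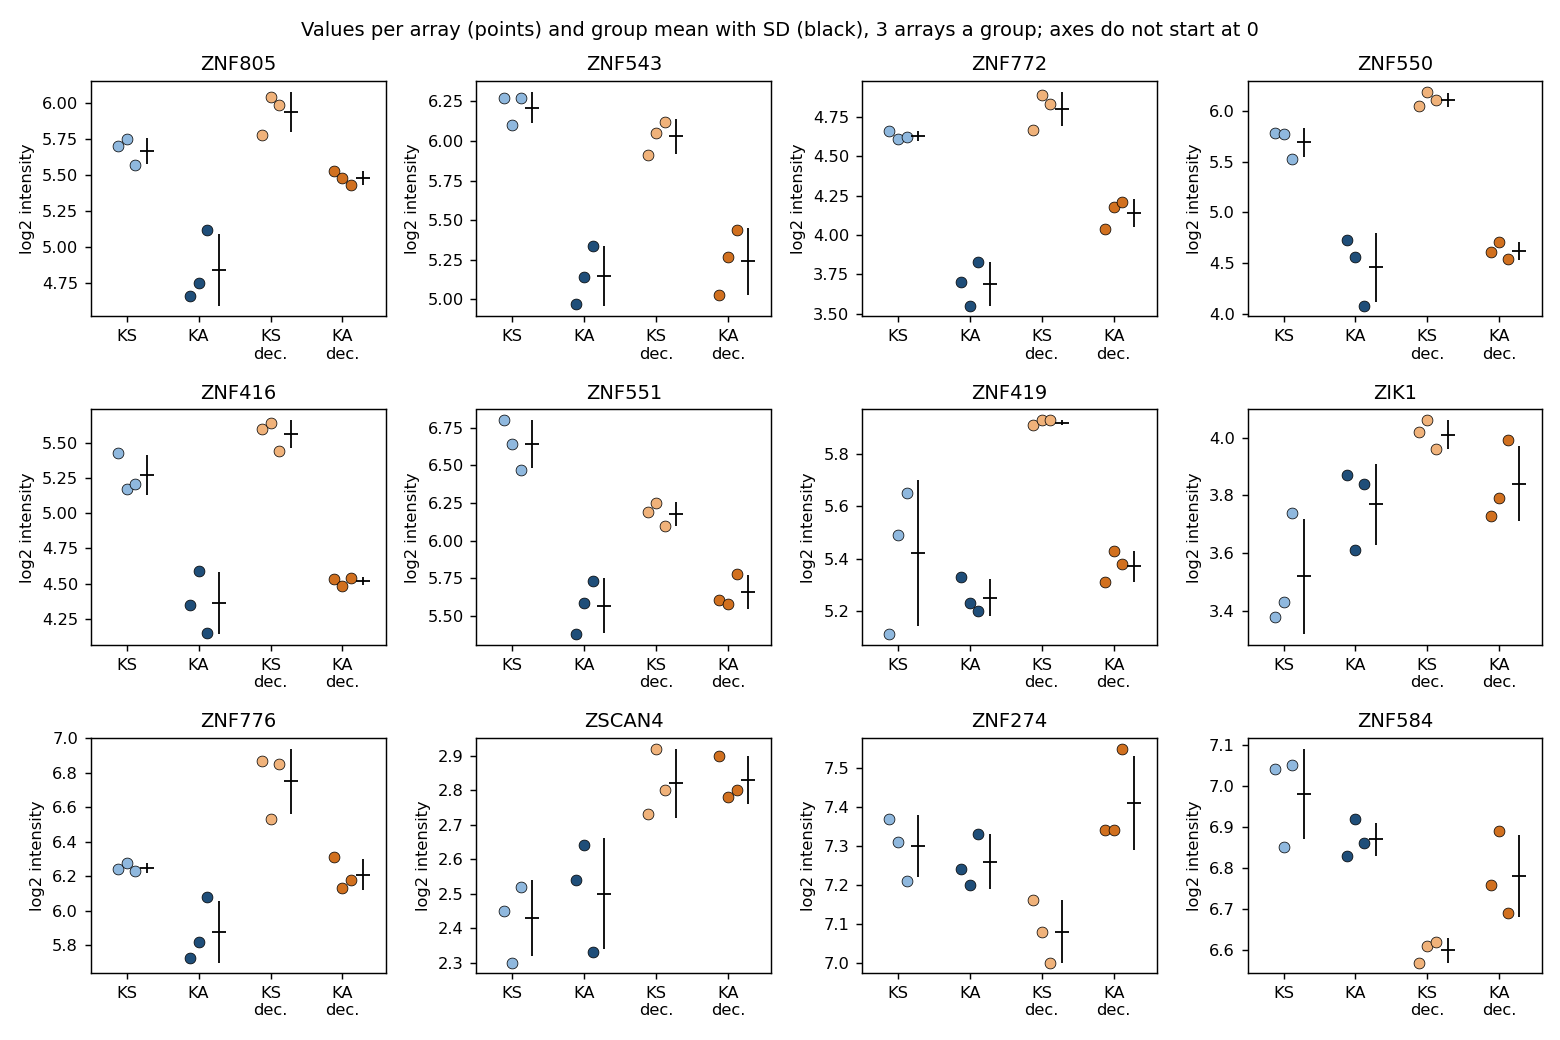
Log2 intensity (vertical axes, which do not start at 0) of 12 cluster genes in untreated KS, untreated KA, decitabine-treated KS and decitabine-treated KA (dec.), one point per array with the group mean and SD in black (n = 3). In ZNF543, ZNF550 and ZNF416 the KA points lie below the KS points with and without decitabine, while the mean of ZNF551 goes with decitabine from 6.64 to 6.18 in KS and from 5.57 to 5.66 in KA.

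Decitabine raised some genes of the cluster in K562 and lowered others. In KS, 9 of 44 genes (20.5%) were called higher after treatment and 4 (9.09%) lower, against 14.6% and 15.7% of all genes, and the median change was 0.08 in the cluster and -0.01 over all genes. Without KS untreated replicate 3, the array that stood apart, 7 rose and 7 fell. Shares over all genes without that array are not given, so nothing particular to the cluster is read from these counts. The untreated arrays in this comparison are those of the contrast by which the cluster was chosen, and the treated arrays are those of the contrast between treated lines. Within the block 7 of 26 genes rose (26.9%, all genes 14.6%) and 2 fell (7.69%, all genes 15.7%). Of the 6 genes before the block ZFP28 and ZNF264 rose, and of the 12 after it ZNF584 and ZNF8 fell. The block was cut on the same untreated KS arrays, so nothing is read from these positions.

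ZNF773 read 3.96, 3.90 and 3.45 in untreated KS and 4.0, 4.23 and 4.67 in treated KS, a rise of 0.53 ± 0.17 (adjusted p = 0.0284). ZNF419, its neighbour, rose by 0.50 ± 0.11 (adjusted p = 0.00332), with all 3 treated arrays within 5.91 to 5.93. ZNF776 read 6.24, 6.28 and 6.23 before and 6.87, 6.53 and 6.85 after treatment, a rise of 0.50 ± 0.11 (adjusted p = 0.00281). All treated arrays of the 3 genes lay above all untreated ones, by a narrow margin in ZNF773.

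ZIK1, which encodes a zinc finger protein that interacts with hnRNP K, read 3.38, 3.43 and 3.74 in untreated KS and 4.02, 4.06 and 3.96 in treated KS, a rise of 0.50 ± 0.11 (adjusted p = 0.00328). ZNF264 read 3.74, 3.81 and 4.08 before and 4.04, 4.60 and 4.44 after treatment, a rise of 0.48 ± 0.15 (adjusted p = 0.0251). In ZIK1 the array nearest to the treated ones was KS untreated replicate 3, and in ZNF264 that array lay above KS decitabine replicate 1. ZNF550, the gene furthest below KS in KA, rose by 0.42 ± 0.14 (adjusted p = 0.0321), from 5.53 to 5.78 before treatment to 6.05 to 6.19 after it. ZFP28 and ZNF548 rose by 0.36 ± 0.09 (adjusted p = 0.00806) and 0.28 ± 0.08 (adjusted p = 0.0133). ZSCAN4, an early-embryo gene that acts at telomeres, read 2.45, 2.30 and 2.52 before and 2.73, 2.92 and 2.80 after treatment. That rise of 0.39 ± 0.09 (adjusted p = 0.00572) and that of ZFP28 lay below the level taken as background, so their sizes are uncertain.

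Of the 4 falls, those of ZNF551 and ZNF749 lay in the block and those of ZNF584 and ZNF8 after it. ZNF551 read 6.80, 6.64 and 6.47 in untreated KS and 6.19, 6.25 and 6.10 in treated KS, a fall of 0.46 on the log2 scale (SE 0.10, adjusted p = 0.00434). ZNF584 read 7.04, 6.85 and 7.05 before and 6.57, 6.61 and 6.62 after treatment, a change of -0.38 ± 0.08 (adjusted p = 0.00193). ZNF749 read 6.05, 6.22 and 5.84 before and 5.79, 5.57 and 5.66 after treatment, a change of -0.37 ± 0.11 (adjusted p = 0.0189). None of these 3 genes overlapped between untreated and treated KS. The choice of the cluster on KA below KS favours high untreated KS readings, and so falls after treatment. This holds above all for genes with a gap between the untreated lines, such as ZNF551 and ZNF749. Their calls are therefore no independent results. ZNF8 changed by -0.23 ± 0.08 (adjusted p = 0.0491).

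Of the 13 calls in KS 7 held with each array left out in turn (ZFP28, ZIK1, ZNF419, ZNF551, ZNF584, ZNF776 and ZSCAN4). ZNF548 missed the threshold without KS decitabine replicate 2 (0.0525). ZNF773 missed it without KS untreated replicate 3 (0.112) or KS decitabine replicates 2 or 3 (0.0513 and 0.13). ZNF550 missed it without KS untreated replicates 2 or 3 (0.0506 and 0.108) or KS decitabine replicates 2 or 3 (0.0983 and 0.0736). ZNF264 and ZNF749 missed it without KS untreated replicates 1 or 2 or KS decitabine replicates 2 or 3 (up to 0.112 and 0.087), and ZNF8 in 8 of 12 cases (up to 0.175 without KS decitabine replicate 2). The falls without KS untreated replicate 3 also took in ZNF17 (-0.33 ± 0.09, adjusted p = 0.0122), ZNF274 (-0.26 ± 0.09, 0.0372) and ZNF544 (-0.26 ± 0.08, 0.0297). Among 8 raised genes with a promoter window 6 held the 8-letter promoter word, and among the 31 other measured genes with a window 14 did (45.2%). For the longer word, which was picked from the cluster's own windows and searched later, the counts were 6 and 5. Of the genes raised in KA, given below, ZNF805 and ZNF134 held the 8-letter word, and ZNF548, ZNF772 and ZSCAN4 did not. These are descriptions of small counts.

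In K562/ADR decitabine raised 5 of 44 genes (11.4%, close to the 9.66% of all genes) and lowered 0 (against 4.96% of all genes). At an unadjusted p under 0.05, limma gave 10 rises (22.7%, all genes 16.1%) and 1 fall (2.27%, all genes 12.2%). The fall was that of ZNF8 (-0.21 ± 0.08, adjusted p = 0.115). The median change was 0.07 in the cluster and -0.02 over all genes. All 5 raised genes lay in the block. The cluster was chosen, and the block cut, on low readings of the same untreated KA arrays that are subtracted here. That choice favours rises over falls, so nothing is read from these counts or from that position.

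ZNF805, the first gene of the block, read 4.66, 4.75 and 5.12 in untreated KA and 5.53, 5.48 and 5.43 in treated KA, a rise of 0.64 ± 0.11 (adjusted p = 0.00281). Its levels in KS were 5.70, 5.75 and 5.57 untreated and 5.78, 6.04 and 5.99 treated. The treated KA arrays thus came close to untreated KS without reaching it. ZNF772 read 3.70, 3.55 and 3.83 in untreated KA and 4.04, 4.18 and 4.21 in treated KA, a rise of 0.45 ± 0.09 (adjusted p = 0.00446). Its untreated KS arrays read 4.66, 4.61 and 4.62, above every KA array of either treatment. Both genes had a large gap between the untreated lines, the contrast on which the cluster was chosen. That choice favours a rise in KA, so these rises and the approach to KS are no independent results.

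ZNF134 read 5.89, 5.95 and 5.96 in untreated KA and 6.31, 6.26 and 6.25 in treated KA, a rise of 0.34 ± 0.08 (adjusted p = 0.0183). In KS it read 6.55, 6.68 and 6.32 untreated and 6.40, 6.40 and 6.48 treated. ZNF548 read 5.93, 5.80 and 5.83 in untreated KA and 6.03, 6.28 and 6.20 in treated KA, a rise of 0.32 ± 0.08 (adjusted p = 0.0136). In both genes the treated KA arrays lay above all untreated ones. ZNF548 in KS read 6.19, 6.2 and 6.14 untreated and 6.41, 6.51 and 6.44 treated. ZSCAN4 read 2.54, 2.64 and 2.33 in untreated KA and 2.90, 2.78 and 2.80 in treated KA, a rise of 0.32 ± 0.09 (adjusted p = 0.0342) between levels not shown to exceed background. ZNF548 and ZSCAN4 were called raised in both lines.

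ZNF805 and ZNF772 kept their calls with each array left out. ZNF134 missed the threshold without KA untreated replicates 1 or 2 or KA decitabine replicate 1 (0.0516 to 0.0643). ZNF548 missed it without KA untreated replicate 2 or KA decitabine replicates 2 or 3 (0.0515 to 0.0614). ZSCAN4 missed it without any treated KA array or KA untreated replicates 1 or 3 (0.0627 to 0.121). The 3 largest differences between untreated lines did not narrow by a called change in KA: ZNF550 changed by 0.16 ± 0.14 there, ZNF551 by 0.09 ± 0.10 and ZNF543 by 0.09 ± 0.12.

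**Figure D3:**
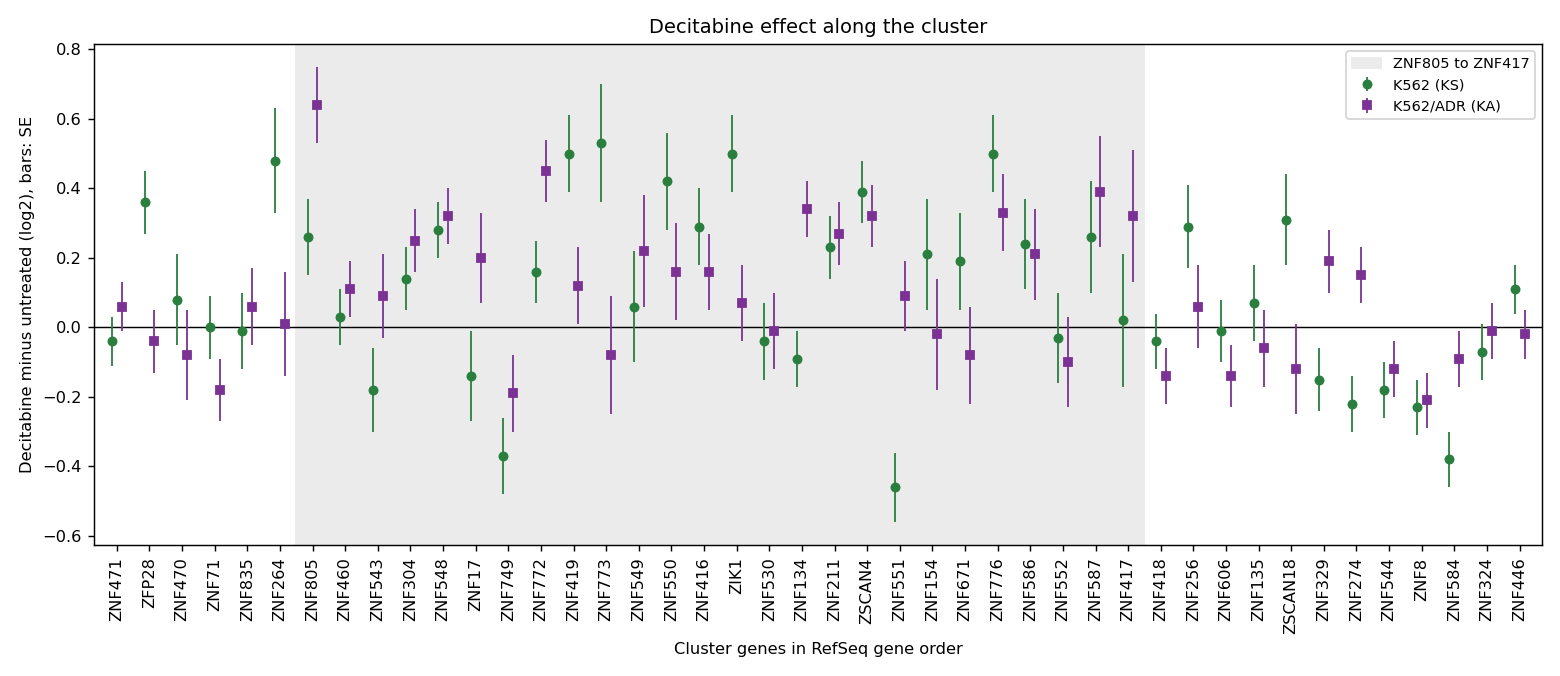
Change with decitabine (log2, vertical axis) for the 44 measured genes in RefSeq gene order (horizontal axis), in KS (circles) and KA (squares), with SE as bars and the block from ZNF805 to ZNF417 shaded. In KA the highest value is that of ZNF805 at 0.64, in KS that of ZNF773 at 0.53, and ZNF551 in KS is the lowest at -0.46.

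Whether the lines responded differently was tested directly as the change in KA minus the change in KS. The untreated arrays enter this difference, and the cluster was chosen because a run of it read lower in KA than in KS. That choice favours positive values, above all in genes with a large untreated gap such as ZNF551, so its call is no independent result. Only ZNF551 was called, with a difference of 0.55 ± 0.15 (adjusted p = 0.0443), so 1 of 44 genes was higher (2.27%, against 4.6% of all genes) and 0 were lower (against 2.14% of all genes). At an unadjusted p under 0.05, limma gave 7 genes higher and 6 lower, where 13.7% and 9.04% of all genes were. ZNF551 fell with decitabine in KS, as given above, and in KA read 5.38, 5.59 and 5.73 untreated and 5.61, 5.58 and 5.78 treated. The call was lost in 10 of 12 cases with 1 array left out, to an adjusted p of at most 0.109 without KS untreated replicate 1, and was kept without KS untreated replicate 3 or KA untreated replicate 3.

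Without KS untreated replicate 3, which stood apart, 4 genes were called higher in this comparison and 3 lower. The shares over all genes in this setting are not given, so these counts are not read as particular to the cluster. ZNF134 (0.53 ± 0.09, adjusted p = 0.00623), ZNF17 (0.53 ± 0.12, 0.0155), ZNF274 (0.41 ± 0.12, 0.0422) and ZNF551 (0.63 ± 0.14, 0.0181) were higher. ZIK1 (-0.54 ± 0.13, 0.0238), ZNF419 (-0.50 ± 0.14, 0.037) and ZFP28 (-0.47 ± 0.13, 0.0395) were lower. With all arrays, ZNF134 differed by 0.43 ± 0.12 (adjusted p = 0.0511), just short of the threshold.

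Lower readings in treated KA were not particular to this cluster among the zinc finger genes of chromosome 19. In 19p12, 19 of 30 genes (63.3%) were called lower and 1 higher, with a median of -0.55. In 19q13.12, 19 of 29 (65.5%) were lower and 1 higher, with a median of -0.57. Other zinc finger genes of the chromosome gave 48 of 140 lower (34.3%) and a median of -0.15, and those of other chromosomes 44 of 285 lower (15.4%) and 50 higher (17.5%), with a median of 0.01. The counts of the cluster (36.4% lower) stood between these, and its block of 26 genes gave 57.7% lower.

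Decitabine in KS raised many zinc finger genes elsewhere on the chromosome: 19 of 30 genes in 19p12 (63.3%, median change 0.51) and 10 of 29 in 19q13.12 (34.5%, median 0.17), with 0 lowered in either. The cluster had 20.5% raised and 9.09% lowered, the other zinc finger genes of chromosome 19 had 25% and 7.14%, and those of other chromosomes 17.9% and 13.3%. In KA the raised shares were 13.3% in 19p12, 13.8% in 19q13.12 and 11.4% in the cluster. The promoters of 19p12 also differed in composition, with an observed to expected CpG ratio of at least 0.6 in 3 of 25 windows (12%). None of these differences between lists was tested.

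**Figure D4:**
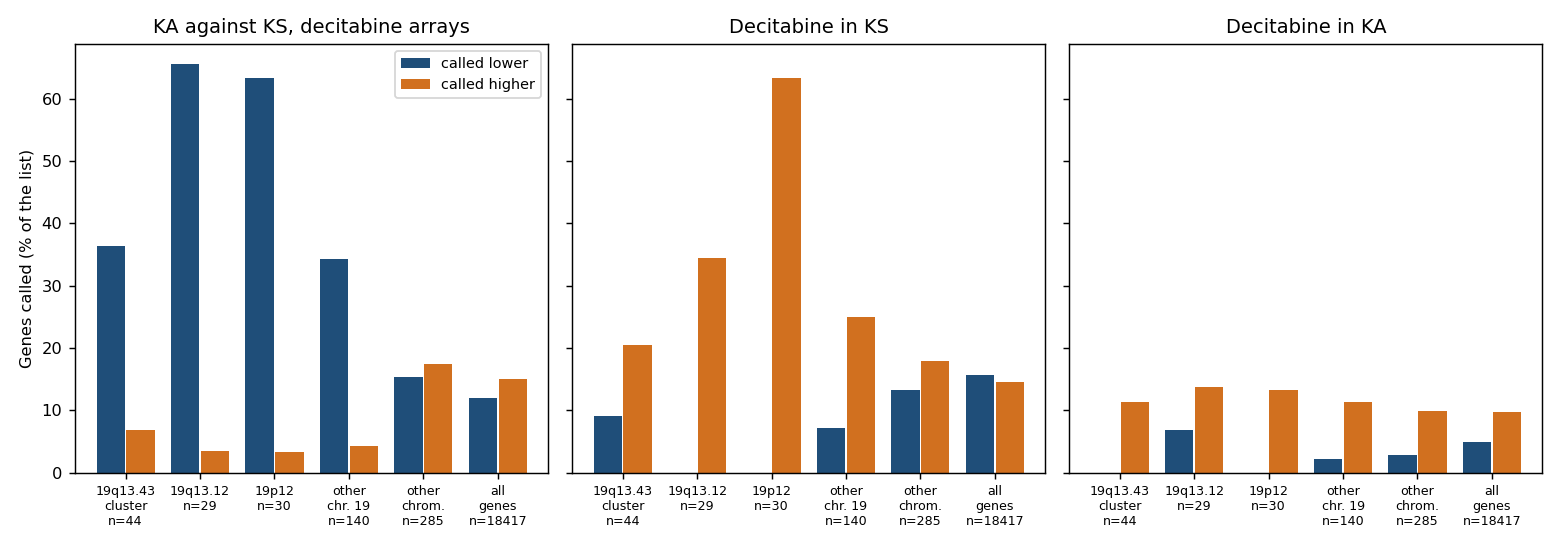
Percent of the genes of each list called lower (blue) or higher (orange) at an adjusted p under 0.05 (vertical axis), for KA against KS on decitabine arrays, decitabine in KS and decitabine in KA; n is the number of genes measured. The cluster has 36.4% lower in treated KA, below 19q13.12 (65.5%) and 19p12 (63.3%), and 20.5% raised by decitabine in KS, against 63.3% in 19p12.

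Inside the same stretch 13 other genes were measured, 11 of them outside the block. In untreated KA none of the 13 was lower without overlap, none differed by 1 or more, and the median difference was 0.00. Of the 2 in the block, ZNF814 differed by -0.01 ± 0.27. Its untreated KS arrays read 5.97, 7.04 and 6.01, so that difference is uncertain. VN1R1 differed by -0.40 ± 0.13, the lowest value of the 13, with overlapping arrays and both levels not shown to exceed background. In treated KA, VN1R1, a receptor gene in the block (-0.74 ± 0.13, adjusted p = 0.000889), and ZIM3 (-0.22 ± 0.07, adjusted p = 0.0431) were lower, both with a KA level not shown to exceed background, and ZSCAN22 was higher (0.30 ± 0.08, adjusted p = 0.0142). The ZIM3 call was lost in 8 of 12 cases with 1 array left out (up to 0.178 without KA decitabine replicate 3), and that of ZSCAN22 in 2 (up to 0.0689 without KA decitabine replicate 1). On the side of ZNF471 the nearest measured genes were ZNF667, which was called in no comparison tested, and its antisense neighbour ZNF667-AS1. Among the 10 measured genes on that side, all outside the cluster, ZNF583 and ZNF582 were also lower in untreated KA without overlap (-0.78 ± 0.10 and -0.45 ± 0.09). ZNF583 read 5.96, 6.08 and 5.96 in untreated KS and 5.16, 5.19 and 5.31 in untreated KA, so lower readings were not confined to the block. In treated cells neither was called (-0.26 ± 0.10, adjusted p = 0.0658, and -0.15 ± 0.09, adjusted p = 0.276). Decitabine raised ZNF583 in KA by 0.37 ± 0.10 (adjusted p = 0.0229, lost in 4 of 12 cases, up to 0.0925 without KA decitabine replicate 3), and its response differed between lines by 0.52 ± 0.14 (adjusted p = 0.0391, lost in 9 of 12 cases, up to 0.0926 without the same array).

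ZNF667-AS1 rose with decitabine in both lines, by 0.72 ± 0.20 in KA (adjusted p = 0.032) and 0.75 ± 0.20 in KS (adjusted p = 0.013). It read 3.67, 4.5 and 4.23 in untreated KS and 4.78, 4.78 and 5.10 in treated KS. In KA it read 3.99, 4.69 and 4.36 untreated and 5.05, 4.89 and 5.27 treated. All treated arrays lay above all untreated arrays of the same line, and the calls were lost in 4 (KA, up to 0.133 without KA untreated replicate 1) and 2 (KS, up to 0.0611 without KS untreated replicate 1) of 12 cases with an array left out. Beyond ZNF446 the nearest genes were SLC27A5, which was not called, and ZBTB45, which fell with decitabine in both lines. The fall of ZBTB45 was 0.68 on the log2 scale in KS (SE 0.08, adjusted p = 6.14e-05). In KA it was 0.31 (SE 0.08, adjusted p = 0.0251, lost in 4 of 12 cases, up to 0.098 without KA decitabine replicate 1). On this side ZBTB45 and CENPBD2P were lower in untreated KA without overlap (-0.38 ± 0.08 and -0.29 ± 0.09). CHMP2A and TRIM28 were higher in untreated KA without overlap (0.47 ± 0.09 and 0.19 ± 0.06). By limma CHMP2A was also called higher in treated KA (0.48 ± 0.09, adjusted p = 0.00181).

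Corepressor genes of KRAB zinc finger proteins, with genes of DNA methylation and its readers, were read as a list of 20. In treated KA against treated KS 2 were lower (10.0%, all genes 11.9%) and 6 higher (30.0%, all genes 15.1%). MPHOSPH8, a subunit of the HUSH complex that reads H3K9me3, read 7.17, 7.09 and 7.36 in treated KS and 6.83, 6.61 and 6.47 in treated KA, a difference of -0.57 ± 0.10 (adjusted p = 0.000987). PPHLN1, another HUSH subunit, was lower by -0.33 ± 0.10 (adjusted p = 0.0205). The higher genes were ZBTB33, a reader of methylated DNA (0.49 ± 0.09), DNMT3B, a de novo DNA methyltransferase (0.40 ± 0.08), ATF7IP, the partner of SETDB1 (0.39 ± 0.09), SETDB1 (0.34 ± 0.09), TRIM28 (0.29 ± 0.06) and the NuRD helicase CHD4 (0.24 ± 0.07), with adjusted p from 0.000864 to 0.0195. TRIM28 itself lies among the measured genes beyond ZNF446 and read 9.75, 9.81 and 9.69 in treated KS and 10.05, 10.06 and 10.03 in treated KA. SETDB1 missed the threshold in 2 of 12 cases (up to 0.0541 without KA decitabine replicate 3), and PPHLN1 and CHD4 in 3 each (up to 0.097 and 0.0808 without KS decitabine replicate 3).

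With decitabine in KS 10 of the 20 fell (50.0%, all genes 15.7%) and 2 rose (10.0%, all genes 14.6%). The maintenance methyltransferase DNMT1 read 9.42, 9.46 and 9.43 before and 9.21, 9.17 and 9.09 after treatment, a change of -0.28 ± 0.06 (adjusted p = 0.00421). SETDB1 changed by -0.41 ± 0.09 (adjusted p = 0.003), DNMT3B by -0.45 ± 0.08 (adjusted p = 0.000962) and the chromatin remodellers HELLS, SMARCAD1 and CHD4 by -0.49 ± 0.11, -0.49 ± 0.10 and -0.34 ± 0.07. CBX3 (-0.27 ± 0.07), HDAC2 (-0.25 ± 0.07), MORC2 (-0.24 ± 0.08) and TRIM28 (-0.18 ± 0.06) were the other falls. The HP1 gene CBX5 (0.42 ± 0.08) and ATF7IP (0.30 ± 0.09) rose. Calls were lost in 9 of 12 cases for TRIM28 (up to 0.139 without KS decitabine replicate 3), 5 for MORC2 (up to 0.122 without KS untreated replicate 1) and 2 each for HDAC2 (up to 0.0563 without KS untreated replicate 2) and ATF7IP (up to 0.077 without KS decitabine replicate 3).

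In KA 1 of the 20 rose (5.0%, all genes 9.66%) and 2 fell (10.0%, all genes 4.96%). Decitabine raised ATF7IP (0.33 ± 0.09, adjusted p = 0.0219) and lowered CHD4 (-0.26 ± 0.07, 0.0246) and UHRF1, the partner that brings DNMT1 to replicated DNA (-0.30 ± 0.08, 0.0262). Each of these calls was lost in 4 or 5 of 12 cases with an array left out, to at most 0.11 (UHRF1 without KA decitabine replicate 3). DNMT3B was the 1 gene of the list whose response differed between lines (0.43 ± 0.12, adjusted p = 0.0453, lost in 10 of 12 cases, up to 0.112 without KS untreated replicate 1). It read 7.63, 7.47 and 7.48 in untreated KS and 7.11, 7.05 and 7.07 in treated KS, and 7.43, 7.58 and 7.50 in untreated KA and 7.63, 7.45 and 7.35 in treated KA. The part of these genes in the readings of the cluster was not tested.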

How the data were processed

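Biotin-labelled cRNA from Trizol RNA of 12 samples was hybridised to Affymetrix arrays, per the labels' protocols. The deposited values are log2 intensities as the authors left them, and were used without rescaling. Background correction, summarisation and normalization are not given in the sources used here. Of 33297 rows 19460 carry 1 gene symbol, 1754 several and 12083 none, per the platform annotation; 19429 of the first kind matched RefSeq, and the brightest row stood for each of 18417 genes (769 had several rows, no cluster gene did). The number of arrays limits the precision.

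The 4 group means were fitted over all 12 arrays in limma 3.58.1 (R 4.3.3; 8 residual and 4.71 prior degrees of freedom), with Benjamini-Hochberg adjustment over all genes and calls at an adjusted p under 0.05, in 4 comparisons. The fit was tested on simulated data. The members and lists were chosen with earlier results of these data known. Values per array are given for genes differing by at least 1 between untreated lines, the 10 largest called changes in each tested comparison and genes called in the difference of responses; ZNF274, ZNF583, ZNF582, ZNF667-AS1 and some corepressor genes were added after their values were seen. A rule on near-identical proteins was not applied, and proteins were not used here. Alternatives were median centring, quantile normalization, the mean of a gene's rows, a filter at the background level, trended and robust moderation, array weights, only the groups compared, the replicate number as a block, each array left out, and both KS arrays that stood apart left out. Promoter windows and gene order are from RefSeq on GRCh38.p14, the first window listed per gene, which need not lie at the outer edge of the gene. Plots were made in Python 3.11.15 with matplotlib 3.10.9.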

Additional observations from a re-analysis of the deposited data

Results flagged for a closer look

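The response of ZNF551 to decitabine differed between the lines by a test of the difference itself: the change in KA minus that in KS was 0.55 ± 0.15 on the log2 scale (limma, adjusted p = 0.0443). All 3 treated KS arrays lay below all 3 untreated KS arrays, while the KA arrays overlapped. With 1 array left out the call was lost in 10 of 12 cases, and the adjusted p was at most 0.109. The untreated arrays enter this difference, and the choice of the cluster on lower readings in KA favours a positive value for ZNF551. No cause was tested.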

How the results depend on the processing

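No result changed direction under the alternatives run, and the median of all genes moved by at most 0.05 on the log2 scale with another scaling. The count of genes lower in treated KA was 14 to 17 with each array left out and 18 without both KS arrays that stood apart (16 with all arrays). Genes lower by at least 1 in untreated KA numbered 1 to 4 with 1 array left out, genes higher in treated KA 1 to 3, genes raised in KA 3 to 6, and genes lowered in KS 2 to 7. In the difference of responses, genes called higher numbered 0 to 4 and genes called lower 0 to 3. Without both KS arrays that stood apart, 7 genes were lowered in KS, and 4 were called higher and 3 lower in the difference of responses. Array weights gave 8 genes raised in KA, and 3 higher and 1 lower in the difference of responses. In the same comparison median centring and the filter at the background level each gave 2 genes higher, and trended and robust moderation gave 3. Replicate numbers did not pair the arrays: deviations of same-numbered arrays correlated at -0.2605 to 0.187, and 0 of 12 arrays correlated best with their own number in every group compared. With the replicate number as a block, 0 genes were called in the difference of responses (ZNF551 adjusted p = 0.0821), 15 were lower and 2 higher in treated KA, 4 rose in KA, and 9 rose and 3 fell in KS. Shares over all genes are not given for these settings, so the counts describe only how the calls depend on the processing. The cause of these shifts was not tested. Of tested single genes under all alternatives, 706 results stayed on their side of the threshold and 87 lost their call. Gene levels near background limit what ZNF471, ZFP28, ZNF470, ZSCAN4, ZNF418 and ZNF256 can show.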
